A study of Mus musculus with 13 samples.

Results

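Myb and Gfi1, genes of a pair of transcription factors of developing T cells, were followed in RNA sequencing of M2 CD4SP thymocytes, the CD69-MHCI+ late stage of CD4 single-positive maturation. They are 2 of 35906 genes with transcripts in the deposited files, and were chosen by their measured differences between the groups of these same libraries, so their levels, fold changes and transcript shares are given as a description with no test. The 13 libraries, each from 1 mouse, form 4 groups, and all mice carry the Lm54 TCR transgene on a Rag1-/- background. Control mice, labelled Ctsl fl/fl (WT) and called WT here, have floxed alleles of Ctsl, the gene of the lysosomal protease cathepsin L. In CtslΔTEC mice a Foxn1-cre transgene deletes these alleles in thymic epithelial cells, so the sorted thymocytes themselves keep Ctsl and its RNA in them is no check of the genotype. The mice were C57BL/6J, of both sexes and 8 to 12 weeks old unless otherwise indicated in the methods. Unstimulated cells came from 4 WT and 5 CtslΔTEC mice. Stimulated cells came from 2 WT and 2 CtslΔTEC mice and were cultured for 4 h on plate-bound LLO:I-Ab monomer, the ligand of the transgenic TCR, at 1 µg/ml with soluble anti-CD28 at 250 ng/ml.

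MYB binds DNA through helix-turn-helix repeats and activates genes together with the acetyltransferases CBP and p300. In the thymus it is needed at several steps from the progenitor to the double-positive (DP) stage, and it contributes to CD4 lineage choice through Gata3. GFI1 is a zinc finger repressor that recruits the demethylase LSD1 (Kdm1a) with CoREST proteins to its targets, among them Il7r and the Gfi1 gene itself. Both genes are known to be high in DP thymocytes, low in resting mature T cells and induced again when a T cell is activated through its receptor.

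Total estimated counts were 25692380 to 39127833 per unstimulated library and 8085463 to 27184520 per stimulated library, with the stimulated WT mouse 5 the shallowest. The Y-linked transcripts Ddx3y, Eif2s3y, Kdm5d and Uty were at or above 10 CPM (counts scaled to library size with TMM factors) in all 5 unstimulated CtslΔTEC libraries but in 1 of 4 unstimulated WT libraries, that of mouse 3, so sex and genotype were nearly the same split there. Each stimulated group had 1 library of each kind. The dates in the file names set all stimulated libraries apart from all unstimulated ones, and an effect of date cannot be told apart from one of stimulation. The same holds for the 4 h of culture, as no culture is labelled for the unstimulated cells. Among markers of the sorted stage, Cd4 was at 1150 CPM ± 15 (SD, n = 4) in unstimulated WT and 1040 CPM ± 19.7 (SD, n = 5) in unstimulated CtslΔTEC cells.

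Myb (ENSMUSG00000019982) lies on the minus strand of chr10:21124935-21160984 and Gfi1 (ENSMUSG00000029275) on the minus strand of chr5:107716657-107726036, in GRCm38 as annotated by GENCODE M21. The files hold 6 transcripts of Myb and 4 of Gfi1. Coding transcripts Myb-201 and Myb-203 differ within the coding region by 1 exon: Myb-203 includes an exon of 357 bases at chr10:21144969-21145325, all of them coding and equal to 119 codons, which Myb-201 skips. Myb-203 encodes the known longer form of MYB. The junctions that separate the transcripts are shown 5′ to 3′ on the coding strand, with 20 bases on each side and the extra exon in capitals.
Myb-201, exon 9 to exon 10: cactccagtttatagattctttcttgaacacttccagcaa
Myb-203, exon 9 to exon 10: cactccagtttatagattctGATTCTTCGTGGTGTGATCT
Myb-203, exon 10 to exon 11: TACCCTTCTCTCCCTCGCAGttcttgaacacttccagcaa
Exon 10 of Myb-201 and exon 11 of Myb-203 are the same exon, so the last 20 bases of the first and the third line are alike.

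Gfi1-201 and Gfi1-203 have the same coding length, 1269 bases, and differ in their first exon, which lies at chr5:107723887-107724343 in Gfi1-201 and at chr5:107725561-107725805 in Gfi1-203. Neither first exon holds coding bases, so counts on these transcripts report on which start was used and not on a different protein. The 140 bases before each start, and before that of Myb-201, are shown from RefSeq promoter sequence of GRCm38.p6, minus strand, 5′ to 3′, because transcripts from all 3 starts carried large shares of the counts. Capitals mark letters searched on both strands: the GFI1 core AATC, the MYB core AACNG, the NFAT and Rel core GGAAA and the AP-1 site TGANTCA.
Myb-201, chr10:21160985-21161124: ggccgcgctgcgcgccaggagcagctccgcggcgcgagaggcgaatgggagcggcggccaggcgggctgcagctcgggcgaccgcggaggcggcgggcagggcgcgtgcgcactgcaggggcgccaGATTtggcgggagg
Gfi1-203, chr5:107725806-107725945: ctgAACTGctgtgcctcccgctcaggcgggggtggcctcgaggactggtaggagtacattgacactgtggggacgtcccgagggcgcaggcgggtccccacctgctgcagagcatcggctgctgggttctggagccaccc
Gfi1-201, chr5:107724344-107724483: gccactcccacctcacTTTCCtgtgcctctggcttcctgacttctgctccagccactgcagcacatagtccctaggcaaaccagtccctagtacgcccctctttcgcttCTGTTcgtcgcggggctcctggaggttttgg
The stretch before Myb-201 held the GFI1 core once, 11 to 14 bases before the start. Each Gfi1 stretch held the MYB core once, 27 to 31 bases before the start of Gfi1-201 and 133 to 137 bases before that of Gfi1-203, and the stretch before Gfi1-201 also held GGAAA once, 120 to 124 bases before the start. No matches overlapped. Such letters are common: of 32851 windows of 140 bases before annotated mouse starts, 48.88% held AATC, 52.65% AACNG, 35.39% GGAAA and 3.99% TGANTCA. A match is a description of the sequence and not a binding site.

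Without stimulation, Myb was higher in CtslΔTEC than in WT thymocytes. Myb stood at 20.9, 13.5, 13.6 and 16.4 CPM in WT mice 1 to 4, with a mean of 16.1 CPM ± 3.46 (SD, n = 4). In CtslΔTEC mice 1 to 5 it stood at 95.3, 106.03, 102, 112 and 99.5 CPM, with a mean of 103 CPM ± 6.23 (SD, n = 5). The lowest CtslΔTEC mouse was far above the highest WT mouse, and the ranges did not overlap. These levels rested on 362 to 711 counts in WT and 2723 to 3926 counts in CtslΔTEC libraries. The log2 fold change was 2.68 ± 0.13 (SE, edgeR), a fold of 6.40, and ranked 10 from the highest among 13152 genes fitted.

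Gfi1 was also higher in unstimulated CtslΔTEC thymocytes, by a smaller step. In WT mice 1 to 4 it was at 10.9, 12.3, 9.59 and 10.3 CPM, with a mean of 10.8 CPM ± 1.16 (SD, n = 4) from 256 to 370 counts. In CtslΔTEC mice 1 to 5 it was at 31.4, 28.4, 28.8, 31.7 and 31.0 CPM, with a mean of 30.3 CPM ± 1.54 (SD, n = 5) from 767 to 1235 counts. All 5 CtslΔTEC mice were above all 4 WT mice, and both groups were tight. The log2 fold change was 1.49 ± 0.09 (SE), a fold of 2.82, at rank 88 from the highest.

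After stimulation both genes were at their highest levels, and the genotype differences on the log2 scale were smaller. Myb was at 302 and 284 CPM in WT mice 5 and 6 and at 554 and 503 CPM in CtslΔTEC mice 6 and 7. Both CtslΔTEC libraries were above both WT libraries, with a log2 fold change of 0.86 ± 0.16 (SE) and a fold of 1.81. Gfi1 was at 350 and 523 CPM in the WT mice and at 590 and 573 CPM in the CtslΔTEC mice. The ranges did not overlap, but the gap between the groups was 49.8 CPM, within the SD of 122 CPM of the WT mice. The log2 fold change of Gfi1, 0.42 ± 0.15 (SE), rested on these WT libraries and was 0.16 without WT mouse 5, the shallowest library, and 0.73 without WT mouse 6.

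Each gene was higher in stimulated than in unstimulated cells of each genotype, and the rise was smaller in CtslΔTEC cells, which started higher. Date and culture go with stimulation in these contrasts. The log2 fold change of Myb from unstimulated to stimulated cells was 4.23 ± 0.14 (SE) in WT and 2.41 ± 0.12 (SE) in CtslΔTEC cells, folds of 18.8 and 5.33. For Gfi1 it was 5.39 ± 0.14 (SE) and 4.32 ± 0.12 (SE), folds of 41.88 and 19.95. The genotype difference therefore changed on stimulation by -1.82 ± 0.20 (SE) on the log2 scale for Myb and by -1.07 ± 0.18 (SE) for Gfi1. Leaving out the same WT libraries, 5 or 6, moved the value of Gfi1 to -1.33 or -0.76. In CPM the absolute differences between genotypes were not smaller after stimulation: the group means of Myb were 293 and 528 CPM in stimulated cells against 16.1 and 103 CPM in unstimulated cells, and those of Gfi1 were 436 and 582 CPM against 10.8 and 30.3 CPM.

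**Figure D1:**
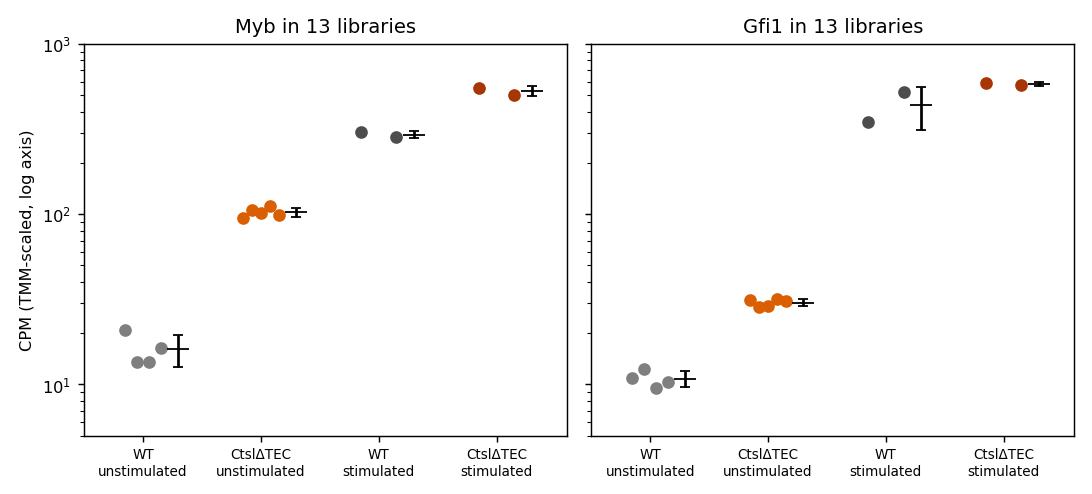
CPM of Myb (left) and Gfi1 (right) on a log axis. Each point is 1 library, and the bar beside each group is its mean ± SD (n = 4, 5, 2 and 2). Both genes rise in the order unstimulated WT, unstimulated CtslΔTEC, stimulated WT, stimulated CtslΔTEC, and the stimulated WT libraries of Gfi1, at 350 and 523 CPM, are the most spread pair.

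The order of the 4 groups was the same for both genes: unstimulated WT, unstimulated CtslΔTEC, stimulated WT and stimulated CtslΔTEC. No neighbours in this order overlapped. For Myb the ratios of the group means between neighbours were 6.40, 2.85 and 1.80. For Gfi1 they were 2.81, 14.42 and 1.33, and the last pair was the one whose gap was within the SD of a group. The levels of the genes relative to each other also changed. Per length, in the deposited TPM, which corrects for transcript length, of the main coding transcripts, unstimulated WT cells had 6.29 TPM ± 1.33 of Myb (SD, n = 4) and 4.99 TPM ± 0.60 of Gfi1. Unstimulated CtslΔTEC cells had more Myb, 40.4 TPM ± 3.52 (SD, n = 5), than Gfi1, 14.6 TPM ± 0.84. Stimulated WT cells had 96.0 and 99.4 TPM of Myb and 150 and 252 TPM of Gfi1, and stimulated CtslΔTEC cells had 187 and 169 TPM of Myb and 276 and 265 TPM of Gfi1. Gfi1 was thus the more abundant of the pair in each of the 4 stimulated libraries and Myb in each of the 5 unstimulated CtslΔTEC libraries.

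**Figure D2:**
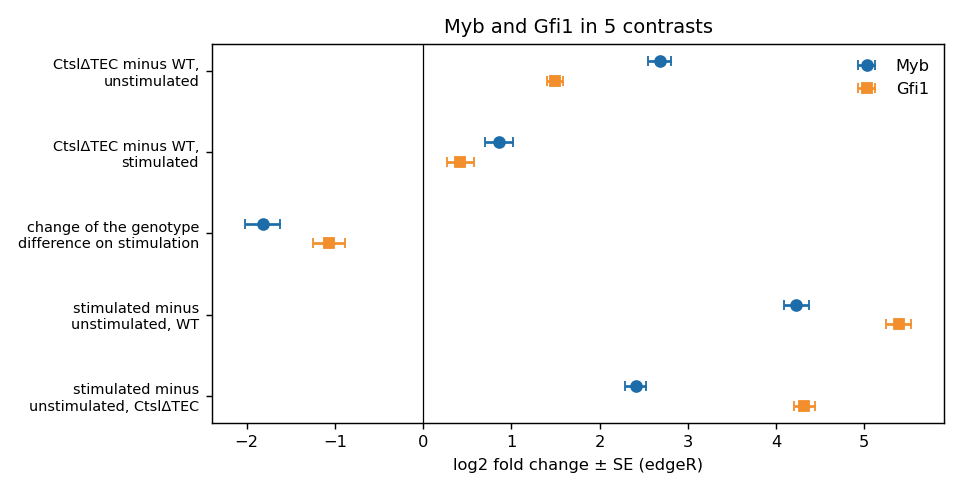
Log2 fold change (x axis) of Myb and Gfi1 in 5 contrasts (y axis), with bars of ± 1 SE from the edgeR fits. The genotype difference of Myb is 2.68 in unstimulated and 0.86 in stimulated cells, and that of Gfi1 is 1.49 and 0.42. The contrasts share libraries with each other.

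The sum of TPM over all transcripts of Myb would have been misleading. Myb-204, a noncoding transcript of 164 bases, held between 0 and 15.8 counts per library, yet because of its length it added up to 52.4 TPM. In WT mouse 1 its 4 counts made 6.05 of 15.3 TPM, and in CtslΔTEC mouse 2 its 15 counts made 24.7 of 69.6 TPM. Only the coding transcripts Myb-201 and Myb-203 were therefore used for levels of Myb per length.

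Most counts of Myb fell on the coding transcripts, and the share of the longer form was highest after stimulation. Myb-203, with the extra exon, held 33.2, 22.2, 30.3 and 34.5% of the Myb counts in unstimulated WT mice 1 to 4 and 36.4, 36.1, 36.2, 34.99 and 36.3% in CtslΔTEC mice 1 to 5. After stimulation it held 39.6 and 41.3% in WT and 41.6 and 41.6% in CtslΔTEC mice. Every unstimulated CtslΔTEC library was above every unstimulated WT library, although the closest pair was at 34.99 and 34.48%, and every stimulated library was above every unstimulated one. Myb-201 ran the other way, with means of 62.1% in unstimulated WT, 54.6% in unstimulated CtslΔTEC, 44.4% in stimulated WT and 43.3% in stimulated CtslΔTEC cells. Of the counts on these 2 transcripts, Myb-203 took 23.9 to 37.4% in unstimulated WT, 37.7 to 41.0% in unstimulated CtslΔTEC, 46.6 to 48.8% in stimulated WT and 48.7 to 49.4% in stimulated CtslΔTEC libraries. The low WT value, that of mouse 2, rested on 84.8 estimated counts of Myb-203. Of the 357 bases of the extra exon, 232 also lie in exons of a gene on the opposite strand, Gm26577, so part of the reads that set Myb-203 apart could come from either strand, and the share of the longer form is uncertain to that extent.

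Transcripts of Myb annotated as retained intron or otherwise noncoding rose in share with stimulation. They held 6.79 to 9.81% of the counts in unstimulated WT and 7.20 to 11.1% in unstimulated CtslΔTEC libraries, ranges that overlapped, and 14.5 to 15.8% in the 4 stimulated libraries. Myb-202 and Myb-206 reached a mean of at least 5% in a group, with 5.45% for Myb-202 in stimulated CtslΔTEC and 5.65% for Myb-206 in stimulated WT cells. In all, Gm26577, at chr10:21145094-21154374, shares 491 exon bases with Myb-203, 410 with Myb-206 and 259 with Myb-201. The study's methods state default settings for kallisto, the counting tool, and these ignore the strand, so reads from it and from Myb cannot be told apart there.

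**Figure D3:**
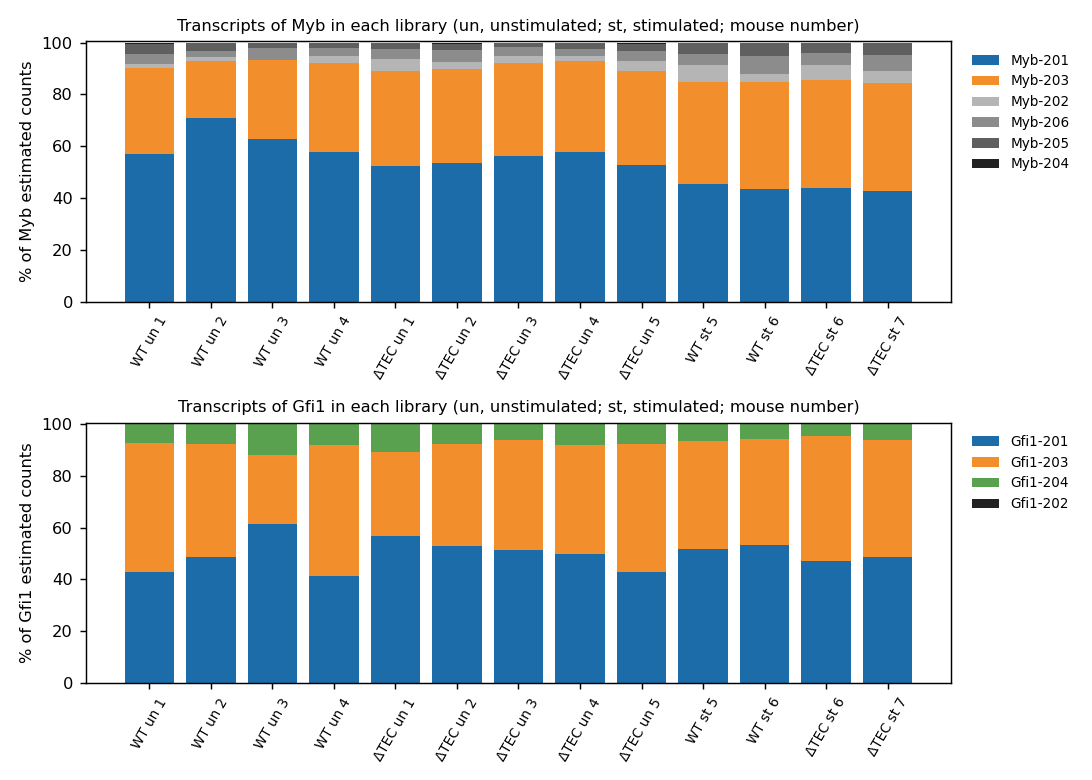
Share of the estimated counts of Myb (top) and Gfi1 (bottom) on each transcript, in percent, in each of 13 libraries named by genotype, condition and mouse number. Myb-203 takes 22.2 to 36.4% of the Myb counts in unstimulated and 39.6 to 41.6% in stimulated libraries, and Gfi1-201 and Gfi1-203 each take mean shares of 41.0 to 52.4% of the Gfi1 counts in all groups.

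The counts of Gfi1 were split between its starts in all groups. Gfi1-201 held a mean of 48.4% ± 9.19 (SD, n = 4) in unstimulated WT, 50.8% ± 5.20 (SD, n = 5) in unstimulated CtslΔTEC, 52.4% ± 1.03 (SD, n = 2) in stimulated WT and 47.7% ± 1.19 (SD, n = 2) in stimulated CtslΔTEC cells. For Gfi1-203 the means were 42.7, 41.0, 41.4 and 46.9%. In stimulated cells the genotypes did not overlap, with 51.7 and 53.1% for Gfi1-201 in WT against 46.9 and 48.6% in CtslΔTEC libraries and 41.2 and 41.6% for Gfi1-203 against 45.3 and 48.6%. Unstimulated libraries varied most, from 41.1 to 61.4% for Gfi1-201 in WT, and these shares rested on 67.6 to 186 estimated counts of Gfi1-203. The unstimulated ranges of the genotypes overlapped for both transcripts, so the higher Gfi1 level of CtslΔTEC cells was found on both starts: Gfi1-201 was at 2.01 to 2.93 TPM in WT and 6.59 to 9.09 TPM in CtslΔTEC, and Gfi1-203 at 1.38 to 2.97 TPM and 5.61 to 8.30 TPM. Gfi1-204, a short annotated transcript with 559 coding bases, held 8.90, 8.16, 6.20 and 5.32% in the 4 groups in the same order. Its first exon of 82 bases lies wholly within exons of A430072P03Rik on the opposite strand. Gfi1-202 was at 0 counts in all 13 libraries, which allows up to 3 counts per library.

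The relatives of the pair gave no call in any comparison of the genotypes. Mybl1 was at means of 0.75 and 0.99 CPM in unstimulated WT and CtslΔTEC cells, with a log2 fold change of 0.39 ± 0.24 (SE, edgeR quasi-likelihood test, adjusted p = 0.363). Mybl2, a MYB relative of dividing cells, was at 3.50 and 4.57 CPM, with 0.38 ± 0.16 (SE, adjusted p = 0.171). After stimulation the log2 fold changes were 0.07 (adjusted p = 0.963) for Mybl1 and -0.57 (adjusted p = 0.223) for Mybl2. On stimulation Mybl2 rose in WT, by 0.49 ± 0.22 (SE, adjusted p = 0.0648), and fell in CtslΔTEC cells, at -0.46 ± 0.22 (adjusted p = 0.0830), and the change of its genotype difference, -0.95 ± 0.31, missed the threshold (adjusted p = 0.124). Gfi1b, the erythroid and megakaryocytic relative of Gfi1, had at most 1 count in any library.

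Other genes of the pathways were read from the same fits against the share of all genes called at an adjusted p under 0.1: 14.8% of 13152 genes in unstimulated cells, 13.3% of 14241 genes in stimulated cells and 6.01% of 14241 genes for the change of the genotype difference. By direction, 6.42% of all genes were called higher and 8.36% lower in unstimulated cells, and 2.77% higher and 10.6% lower in stimulated cells. For the change of the genotype difference these shares were 1.13% and 4.88%. The median log2 fold change over all genes was 0.010, -0.055 and -0.065 in the 3 comparisons.

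Cofactors and turnover factors of MYB gave few calls. Of 11 genes, among them the acetyltransferases Crebbp and Ep300 and the ubiquitin ligase receptor Fbxw7, 0 were called in unstimulated cells by edgeR, with 1 at an unadjusted p under 0.05 and 1 called by DESeq2, and their median log2 fold change was 0.02. In stimulated cells 1 of 11 was called and lower, Men1, which encodes menin, an adaptor that joins MYB to the KMT2A complex. Men1 was at 29.6 and 32.4 CPM in stimulated WT and 18.8 and 19.3 CPM in stimulated CtslΔTEC cells, with a log2 fold change of -0.69 ± 0.11 (adjusted p = 0.00186). Its genotype difference also changed on stimulation, by -0.57 ± 0.13 (adjusted p = 0.0318), a call lost without stimulated WT mouse 5 or stimulated CtslΔTEC mouse 6.

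Corepressors and partners of GFI1 were called at 23.1% in unstimulated cells, with 1 of 13 higher, 2 lower and a median log2 fold change of 0.00. Ajuba, a LIM protein that binds the GFI1 SNAG domain, was at 2.46 to 4.99 CPM in WT and 0.75 to 1.55 CPM in CtslΔTEC cells. Its log2 fold change was -1.89 ± 0.26 (adjusted p = 0.000629). Kdm1a, the demethylase LSD1, differed by -0.16 ± 0.05 (adjusted p = 0.0593) and Rcor3, a CoREST protein, by 0.28 ± 0.09 (adjusted p = 0.0633), and each of these calls was lost when any of several single mice was left out. In stimulated cells 3 of 13 were lower and 0 higher, with a median of -0.28. Ehmt2, the methyltransferase G9a, was at 90.0 and 93.3 CPM in WT and 50.9 and 59.7 CPM in CtslΔTEC cells (log2 fold change -0.72 ± 0.16, adjusted p = 0.0119), a call lost without stimulated CtslΔTEC mouse 6. Phf21a, a reader in the LSD1 complex, had -0.42 ± 0.12 (adjusted p = 0.0449), a call lost without either stimulated WT mouse 6, stimulated CtslΔTEC mouse 7 or unstimulated CtslΔTEC mouse 3. Hdac1, a histone deacetylase, had -0.28 ± 0.10 (adjusted p = 0.0951), which 19 of 21 alternatives lost. For the change of the genotype difference 1 of 13 was called, Ajuba, at 1.50 ± 0.46 (adjusted p = 0.0981), and 12 of 20 alternatives lost that call.

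Genes reported as MYB targets gave no call in the direction of Myb between genotypes, a direction in which few of all genes were called. In unstimulated cells 0 of 8 tested were higher and 2 were lower, 25% of those tested, with a median log2 fold change of -0.13. Of all genes 6.42% were called higher and 8.36% lower there, and 2.77% and 10.6% in stimulated cells. With 8 or 10 genes tested, 0 higher is near these shares. Gata3, the CD4 lineage factor, was at 98.5 to 117 CPM in WT and 53.0 to 73.4 CPM in CtslΔTEC mice (log2 fold change -0.80 ± 0.09, adjusted p = 0.000176). Hspa8, a chaperone gene, was at 1106 to 1559 CPM and 713 to 1078 CPM (-0.63 ± 0.12, adjusted p = 0.00664). In stimulated cells 1 of 10 was lower, again Gata3, at 52.3 and 59.3 CPM in WT and 24.5 and 33.9 CPM in CtslΔTEC cells (-0.92 ± 0.17, adjusted p = 0.00328). With an offset for transcript length this call was lost, at -0.43. None of the 10 was called for the change of the genotype difference by edgeR or DESeq2, with 0 at an unadjusted p under 0.05. The targets Bcl2, a survival gene, and Myc had -0.23 (adjusted p = 0.251) and -0.11 (adjusted p = 0.532) in unstimulated cells.

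Genes reported as repressed by GFI1 were called more often than the background, mostly in the lower direction. In unstimulated cells 1 of 14 was higher, 6 were lower and 7 were not called, with a median log2 fold change of -0.15. These calls were 50% of those tested, against 14.8% of all genes. Of all genes 6.42% were called higher and 8.36% lower. Il7r, the IL-7 receptor chain, was at 73.1 to 107 CPM in WT and 35.5 to 62.7 CPM in CtslΔTEC cells (-1.08 ± 0.17, adjusted p = 0.00194). Foxo1, a factor of quiescent T cells, was at 486 to 559 CPM and 348 to 415 CPM (-0.46 ± 0.07, adjusted p = 0.00167), and Ccr7, a homing receptor, at 560 to 675 CPM and 452 to 519 CPM (-0.37 ± 0.07, adjusted p = 0.00739). Socs3, a feedback inhibitor of cytokine receptors, ran opposite to the others, at 16.0 to 19.8 CPM in WT and 48.5 to 74.1 CPM in CtslΔTEC cells (1.88 ± 0.12, adjusted p = 4.03e-06). The groups did not overlap for any of these 4 genes, but the genes were picked for the smallest p of the list in this comparison. The lack of overlap is therefore no separate support.

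In stimulated cells the same list had 1 of 15 higher, 7 lower and 7 not called, 53.3% against 13.3% of all genes, with a median of -0.48. Lower calls also prevailed over all genes there, at 10.6% against 2.77% higher, so that lean is not particular to the list. Ets1, a T cell transcription factor, was at 442 and 587 CPM in WT and 146 and 239 CPM in CtslΔTEC cells (-1.40 ± 0.19, adjusted p = 0.000496). Il7r was at 32.2 and 45.9 CPM and 9.48 and 14.03 CPM (-1.72 ± 0.30, adjusted p = 0.00296), and Socs3 at 1.18 and 1.42 CPM and 3.0 and 5.20 CPM (1.76 ± 0.32, adjusted p = 0.00359). The genotype difference changed on stimulation for 2 of 15, among them Ets1 by -1.22 ± 0.23 (adjusted p = 0.0134). The list median was -0.43. Without stimulated WT mouse 5 or stimulated CtslΔTEC mouse 6, 5 genes of the list in place of 8 were called in stimulated cells. Klf2, S1pr1 and Il7r of this list are also markers of mature CD4SP cells, and Csf1 of this list had at most 3 counts in any library.

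**Figure D4:**
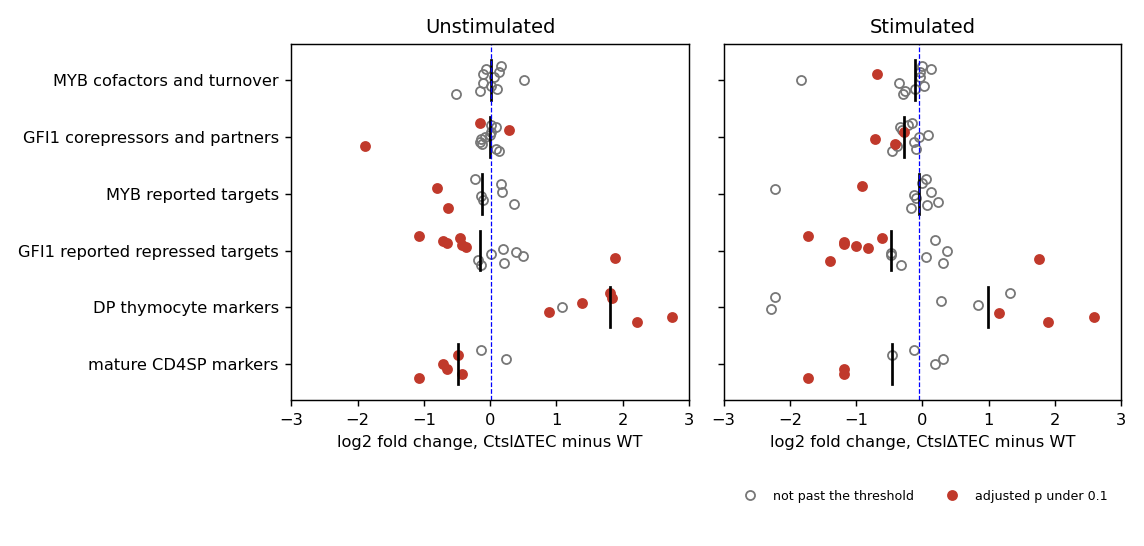
Log2 fold change, CtslΔTEC minus WT, of each tested gene (circle) of 6 lists in unstimulated (left) and stimulated (right) cells. Filled circles passed an adjusted p under 0.1, black bars are list medians, and the dashed line is the median of all genes tested. GFI1 reported repressed targets and mature CD4SP markers lie mostly left of the line and DP markers mostly right of it in unstimulated cells.

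Markers of the DP stage, the stage before CD4SP cells at which Myb and Gfi1 are both high, moved with genotype in the same direction as the pair. Their summed level was 53.1 to 77.8 CPM in unstimulated WT and 226 to 302 CPM in unstimulated CtslΔTEC libraries, and 6 of 7 tested were higher, 0 lower, with a median log2 fold change of 1.81. Cd8a and Cd8b1, the chains of the CD8 coreceptor, were at 4.15 to 4.69 CPM and 27.7 to 35.1 CPM in WT and 23.5 to 33.7 CPM and 120 to 154 CPM in CtslΔTEC libraries (log2 fold changes 2.75 ± 0.12 and 2.22 ± 0.10, adjusted p = 2.76e-07 for each). Dntt, the terminal transferase, had 1.84 ± 0.16 (adjusted p = 3.49e-05) and Arpp21 0.89 ± 0.18 (adjusted p = 0.00684). The labelled sort was for CD4SP cells, given as CD4+CD8α- for M2 cells in other experiments of the study's methods. Such a gate is set to exclude DP cells, but the study reports its sorted populations as typically less than fully pure. Whether DP cells remained was not tested. In bulk samples a larger number of cells of a type and more RNA per cell cannot be told apart, and the part of these markers in the levels of Myb and Gfi1 was not tested.

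The DP markers and the pair parted on stimulation. In stimulated libraries the summed markers were lower, at 26.9 to 31.8 CPM in WT and 73.5 to 78.6 CPM in CtslΔTEC libraries, while Myb and Gfi1 were at their highest. Of 8 markers tested 3 were higher and 0 lower by genotype after stimulation, with a median of 0.99: Cd8b1 at 1.90 ± 0.16 (adjusted p = 2.93e-05), Cd8a at 2.59 ± 0.27 (adjusted p = 8.8e-05) and Arpp21 at 1.15 ± 0.36 (adjusted p = 0.0634), the last lost without either WT mouse or CtslΔTEC mouse 7. Of the 8, 1 was called for the change of the genotype difference, Dntt at -1.55 ± 0.42 (adjusted p = 0.0600). That call was lost without unstimulated CtslΔTEC mouse 3, stimulated WT mouse 5 or stimulated CtslΔTEC mouse 7.

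Markers of mature CD4SP cells ran the other way, with 0 of 7 higher and 5 lower in unstimulated cells and a median log2 fold change of -0.48. Their summed level was 4404 to 4887 CPM in WT and 3552 to 3829 CPM in CtslΔTEC libraries. Besides Il7r, S1pr1, the egress receptor, had -0.65 ± 0.13 (adjusted p = 0.00746) and Zbtb7b, which encodes the CD4 lineage factor ThPOK, -0.48 ± 0.10 (adjusted p = 0.00821). In stimulated cells 0 of 7 were higher and 3 lower, with a median of -0.46.

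Markers of other cell types in which Myb or Gfi1 are high were at different levels. Summed markers of DN and progenitor cells were at 0.49 to 1.11 CPM in unstimulated WT and 0.68 to 1.25 CPM in unstimulated CtslΔTEC libraries. In stimulated libraries the sums were 7.93 to 8.52 CPM in WT and 4.46 to 8.29 CPM in CtslΔTEC. Most of the stimulated sum was 1 gene, Mef2c, at means of 6.56 CPM in WT and 4.56 CPM in CtslΔTEC cells. Its means in unstimulated cells were 0.09 and 0.05 CPM. Hoxa9 was at 0 counts in every library and Hhex at no more than 3. Myeloid markers summed to 10.7 to 17.3 CPM and 9.72 to 11.99 CPM, with the granulocyte genes Elane and S100a8 at 0 counts in every library. In unstimulated cells Itgam was lower (-0.77 ± 0.15, adjusted p = 0.00553) and Csf1r higher (1.30 ± 0.43, adjusted p = 0.0824), and the call of Csf1r was lost on leaving out any of 8 of the 9 mice. B cell markers summed to less than 1 CPM, with Pax5 at no more than 1 count. Erythroid markers ranged over 31.1 to 61.7 CPM in unstimulated WT and 28.7 to 117 CPM in unstimulated CtslΔTEC libraries, ranges that overlapped. Of thymic epithelial markers, Foxn1, Krt5 and Krt8 had at most 3 counts in any library, and Epcam was at 1.32 to 1.87 CPM in WT and 1.82 to 3.64 CPM in CtslΔTEC libraries (0.77 ± 0.22, adjusted p = 0.0469), a call lost without any of 3 mice.

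Values of the pair can also be set side by side for libraries alike for Y-linked transcripts, but with 1 WT library in each such set these ratios have no replicate check, and an effect of sex on the levels cannot be told apart from one of genotype by them. Unstimulated WT mouse 3, the one WT library with these transcripts, had 13.6 CPM of Myb and 9.59 CPM of Gfi1, and the means of the 5 CtslΔTEC libraries were 7.59 and 3.15 times these values. With the Y-linked level as a covariate the log2 fold changes were 2.91 for Myb and 1.67 for Gfi1. Among stimulated libraries, Myb was 1.77 times higher in the CtslΔTEC mouse with these transcripts than in the WT mouse with them and 1.83 times higher between the mice without them. For Gfi1 these ratios were 1.10 and 1.69. The same covariate ended 12 of the 21 unstimulated calls of genes named from the lists, among them those of Il7r, Foxo1, Zbtb7b, Arpp21, Hspa8, Itgam and Irf4, and left 3 called genes each among the DP markers and the GFI1 reported targets. With the covariate the log2 fold change was -0.56 for Zbtb7b, -0.84 for Irf4, 0.83 for Arpp21, -0.78 for Il7r and -0.35 for Foxo1, and for Hspa8 and Itgam it was -0.30 and -0.40, against -0.63 and -0.77 without it. Each kept its direction. Gata3, Socs3, Ccr7, Ajuba, Cd8a, Cd8b1, Dntt, S1pr1 and Il2ra stayed past the threshold with it.

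Activation genes differed from the pair in part. Il2, which encodes the T cell growth factor IL-2, was at 49.8 and 53.1 CPM in stimulated WT and 3.0 and 5.57 CPM in stimulated CtslΔTEC cells (-3.55 ± 0.34, adjusted p = 5.86e-05), opposite in direction to Myb and Gfi1. Il2ra, an IL-2 receptor chain, resembled the pair: it was at 2.02 to 2.64 CPM in unstimulated WT and 6.55 to 13.04 CPM in unstimulated CtslΔTEC cells (2.0 ± 0.20, adjusted p = 6.82e-05) but at 655 and 718 CPM in stimulated WT and 738 and 786 CPM in stimulated CtslΔTEC cells (0.16 ± 0.20, adjusted p = 0.709). Its genotype difference changed by -1.83 ± 0.27 (adjusted p = 0.00389). Tnfrsf4, which encodes OX40, was lower in stimulated CtslΔTEC cells (-0.94 ± 0.22, adjusted p = 0.0146) and its difference changed by -1.31 ± 0.27 (adjusted p = 0.0186). Both calls were lost without stimulated CtslΔTEC mouse 6, and the first also without stimulated WT mouse 5. Irf4 was lower in unstimulated CtslΔTEC cells (-0.96 ± 0.22, adjusted p = 0.0162). Of the 7 activation genes 1 of 6 tested was higher and 1 lower in unstimulated cells, and 0 of 7 were higher and 2 lower in stimulated cells.

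Other genes followed the pattern of the pair over the 13 libraries. By the root mean square distance of log2 CPM, each gene centred on its own mean, the genes nearest to Myb among 10088 compared included Cd160 at 0.57, Cst7 at 0.60, Bcl6 at 0.87 and Gfi1 at 0.91. Those nearest to Gfi1 were Lta at 0.39, Prnp at 0.44, Tbc1d30 at 0.46, Cish at 0.50 and Bcl6 at 0.51, and Myb was at rank 70. Unstimulated CtslΔTEC cells set Myb apart from its neighbours: there the centred mean of Myb was 0.23, above that of Cd160, -0.16, and of Gfi1, -0.79. These distances are a description over 13 libraries that share their groups.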

How the data were processed

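The authors quantified paired-end reads per transcript with kallisto 0.48 (named in the submitters' processing notes) against Ensembl 106, and deposited estimated counts and TPM for 117497 transcripts in each of 13 libraries. The deposited estimated counts are not normalized, and the deposited TPM is scaled by effective length within a library. The labels describe polyadenylated RNA and the methods rRNA depletion, and the methods state default settings, under which kallisto ignores the strand. In Python 3.11.15, counts and TPM of 116397 transcripts were summed to genes through GENCODE M21, and the other 1100 transcripts took at most 0.461% of counts in a library. Summed counts were rounded to whole numbers.

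In R 4.3.3, genes kept by filterByExpr were fitted with edgeR 4.0.16 (TMM factors, quasi-likelihood test, Benjamini-Hochberg adjustment over all genes, threshold 0.1). Unstimulated genotypes used 9 libraries, and all other contrasts a 4-group model of 13. SE was taken from the fold change and its F statistic, and log2 CPM used a prior count of 2. With 2 mice per stimulated group, the spread is borrowed from the other groups. Alternatives were DESeq2 1.42.0, other normalizations and filters, a length offset, date, mouse number or Y-linked level in the model, and each mouse left out. The methods were tested on simulated data.

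Myb, Gfi1 and all gene lists were chosen with earlier results of these data known, and the lists were written from general knowledge. Named genes were the pair and its relatives, up to 4 genes per list and genotype comparison with the smallest p past the threshold, list genes at 3 counts or fewer in every library, transcripts with at least 5% of a gene's counts in a group mean, the 5 genes nearest in pattern to each of the pair with a mean log2 CPM of at least 1, and 4 Y-linked genes. Crebbp, Ep300, Fbxw7, Bcl2, Myc, Mef2c and Cd4 were named besides these after their values were seen. Some genes that these rules name are not reported here. The genes Gm26577 and A430072P03Rik were not analysed here. Limits from a count of 0 cover counting error only.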

Additional observations from a re-analysis of the deposited data

Results flagged for a closer look

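Each of these results is given as a value. The genotype difference changed on stimulation, on the log2 scale of the 4-group edgeR model, by -1.82 for Myb and -1.07 for Gfi1, which were chosen for such differences. Among genes named from the lists it changed by 1.50 for Ajuba, -1.55 for Dntt, -1.22 for Ets1, -1.83 for Il2ra, -0.57 for Men1 and -1.31 for Tnfrsf4, with adjusted p values given above.

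A single library stood apart from its group in 4 of 78 groups examined, where chance gives about 1 in 20, or 3.9. Myb-203 held 34.99% of the Myb counts in unstimulated CtslΔTEC mouse 4, against 36.14 to 36.43% in the other 4. Gfi1-204 held 12.17% of the Gfi1 counts in unstimulated WT mouse 3, against 7.51 to 8.0% in the other 3. Il2, near 0 counts in unstimulated cells, was at a log2 CPM of -3.31 in WT mouse 4 and of -2.93 in CtslΔTEC mouse 2, against -3.79 in all other unstimulated libraries.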

How the results depend on the processing

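Over 25 alternative settings the log2 fold changes of Myb and Gfi1 gave 198 further values, none of opposite sign, and 195 of them moved by less than 1 SD between replicates. The others were the unstimulated genotype difference of Gfi1 with the Y-linked covariate, 1.67, and, with the transcript length offset, the stimulation response of CtslΔTEC cells, 2.28 for Myb and 4.09 for Gfi1. The unstimulated difference of Myb ranged from 2.60 to 2.91. The number of genes called in unstimulated cells, 1943, was 1051 with mouse number as a replicate block and 429 with the Y-linked covariate. Same-numbered unstimulated mice correlated at -0.157, 0.352, -0.098 and -0.142 across genes, so the numbers, taken from the sample titles, were not used to pair mice; the file names number CtslΔTEC mouse 2 and all stimulated mice differently. With the block Myb was at 2.71 and Gfi1 at 1.49. In stimulated cells 1898 genes were called, 1127 from the 4 stimulated libraries alone and 945 to 2235 on leaving out 1 mouse, with 966, 945 and 1254 without WT mouse 5, CtslΔTEC mouse 6 and CtslΔTEC mouse 7. For the change of the genotype difference 856 were called, and 334 to 1227 on leaving out 1 mouse, with 340 and 334 without WT mouse 5 and CtslΔTEC mouse 6. The causes were not tested. Transcript shares of Gfi1 in unstimulated WT libraries rested on 256 to 370 counts.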
